A study of Mus musculus with 4 samples.

Results

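The non-irradiated arrays of this series carried designed DNA that is labelled as having received no ultraviolet light. The signal of the antibodies there is called background below. Whether any of the signal on these arrays comes from photoproducts was not tested. All library spots of these 2 arrays were taken, and they hold the same 5480 distinct sequences as the irradiated arrays, printed under 6126 probe names with 10 replicate spots each. That is 122520 of the 245040 library spots of the 4 arrays. One array had a mouse antibody against cyclobutane pyrimidine dimers (CPD) at a dilution of 1 in 400, and the other a mouse antibody against 6-4 photoproducts (6-4PP) at 1 in 80. Both were read through an Alexa dye. The organism given in the labels is the mouse, and every measured item is a synthetic oligonucleotide. Each antibody had 1 non-irradiated array, so no test between antibodies was possible, and replicate spots show the spread within an array only. Antibody, dilution and array cannot be told apart, so a difference named by antibody below may come from any of them. The 6-4PP array used here is the one whose condition field reads Non-UV, although its title reads UV. That array was the dimmer of the 6-4PP arrays, with a median intensity of 56.5 against 15690. The CPD medians were 30 without and 4329 with irradiation.

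Ultraviolet light joins neighbouring pyrimidines of a DNA strand, either through a 4-membered ring (CPD) or through a single bond between the rings (6-4PP). Antibodies raised against such lesions read them on arrays, and any binding that remains on intact DNA sets the floor from which damage can be seen. The sequences were built on sites of 3 DNA-binding proteins. MITF is a regulator of pigment cells that binds the E-box CACGTG, TBP is the general factor that binds the TATA box, and p53 is a tumour suppressor that binds paired half-sites. In 21 libraries, 4 neighbouring bases ran through all 256 combinations, on a backbone with the site or with a changed version of it. In the MITF libraries the varied bases follow the E-box and do not lie in it. In 6 further libraries of 125 probes, dipyrimidines were placed at up to 3 positions of the listed or of the opposite strand. Probes had 59 or 60 bases and ended in the same 10 bases.

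The sequences that carry the results are given first, 5′ to 3′, with the 4 varied bases in capitals. The first set shows the 3 brightest probes with both antibodies, followed by probes that differ from them in a varied base or in the surrounding sequence and had lower values.
MITF_ebox_60_GTAA: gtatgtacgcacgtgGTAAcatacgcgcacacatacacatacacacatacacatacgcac
MITF_ebox_60_GTCA: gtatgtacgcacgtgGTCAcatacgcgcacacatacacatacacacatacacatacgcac
MITF_ebox_60_GTGA: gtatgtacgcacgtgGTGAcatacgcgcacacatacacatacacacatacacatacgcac
MITF_ebox_60_GTTA: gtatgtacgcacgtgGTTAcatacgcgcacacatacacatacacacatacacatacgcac
MITF_ebox_60_GTAT: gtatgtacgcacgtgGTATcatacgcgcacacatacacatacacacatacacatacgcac
MITF_ebox_59_GTAA: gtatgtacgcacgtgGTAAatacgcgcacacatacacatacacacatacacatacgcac
MITF_sebox_60_GTAA: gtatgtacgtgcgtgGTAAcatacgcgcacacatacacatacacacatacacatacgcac
NP_MITF_ebox_60_GTAA: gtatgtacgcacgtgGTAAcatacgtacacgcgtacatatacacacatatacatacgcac

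The second set shows other probes named in the results. The p53_E_mut_60 probe was among the 5 brightest with CPD and MITF_Ex_ebox_60_CTTA among the 5 brightest with 6-4PP. The p53_60 probe was among the 5 dimmest with 6-4PP, and p53_E60_TTTA and MITF_Ex_ebox_60_CCAG had large rank differences in opposite directions. In the TBP probe, from a three-position library, the capitals mark TT steps.
p53_E_mut_60_TTTA: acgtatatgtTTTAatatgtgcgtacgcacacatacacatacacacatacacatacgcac
p53_E60_TTTA: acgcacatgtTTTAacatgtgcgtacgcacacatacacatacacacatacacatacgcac
MITF_Ex_ebox_60_CTTA: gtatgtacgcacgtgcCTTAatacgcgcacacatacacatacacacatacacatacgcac
MITF_Ex_ebox_60_CCAG: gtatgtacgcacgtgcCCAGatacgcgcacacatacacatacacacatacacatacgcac
p53_60_CGAC: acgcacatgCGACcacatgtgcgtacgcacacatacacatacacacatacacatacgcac
TBP_P6_TT&P12_TT&P18_TT: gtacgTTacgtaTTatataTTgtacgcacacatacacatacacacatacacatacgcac

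Background was low and narrow with both antibodies. The value of a sequence is the median intensity of its unflagged spots. With CPD the values had a median of 30, with 5% below 26.5 and 5% above 42.5, and a highest value of 328. With 6-4PP the median was 56.5, the same limits were 37 and 69, and the highest value was 427. The SD of log2 intensity over sequences was 0.23 with CPD and 0.28 with 6-4PP. These SDs serve as the unit below: a value in SD units is the log2 intensity minus the array median, divided by the SD of that array. Spot intensities are whole numbers, and the CPD medians took only 99 different values, so many sequences share a rank.

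Replicate spots show how much of this spread belongs to the sequences. The pooled SD of log2 intensity over replicate spots was 0.25 with CPD and 0.16 with 6-4PP. Differences between sequences made up 38.9% of the variance of a single spot with CPD and 73.0% with 6-4PP. Medians of odd-numbered and of even-numbered spots had a Spearman rho of 0.54 with CPD and of 0.84 with 6-4PP over the 5480 sequences. The 6-4PP shares include the distance between libraries described below. Within libraries the pooled SD over probes was 0.90 of the array SD with CPD and 0.44 with 6-4PP.

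A further 397 spots per array have neither a name nor an identifier, and what they carry is not given in the sources used here. Their median was 28 with CPD (5% to 95%: 24 to 41) and 30 with 6-4PP (26 to 37). The library median was 1.07 times that level with CPD and 1.88 times with 6-4PP. With 6-4PP 5224 sequences (95.3%) lay above the 95th percentile of these spots, and with CPD 324 (5.91%) did. That percentile describes single spots, whereas a sequence value is a median, mostly of 10 spots. On the irradiated arrays the same spots read 2903 and 18060, so they cannot be taken as free of signal.

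MITF_ebox_60_GTAA, MITF_ebox_60_GTCA and MITF_ebox_60_GTGA held ranks 1, 2 and 3 with both antibodies. These probes hold an intact E-box followed directly by the varied bases. With CPD, GTAA had 328 ± 57.6 (SD, 10 spots; spots from 251 to 425), GTCA 229.5 ± 59.1 (157 to 350) and GTGA 96.5 ± 12.5 (73 to 110). With 6-4PP, GTAA had 427 ± 64.8 (SD, 9 spots; 354 to 558), GTCA 275.5 ± 84.2 (10 spots; 149 to 432) and GTGA 146 ± 18.2 (10 spots; 118 to 176). Spots of GTAA and GTCA overlapped on both arrays, and every GTGA spot lay below every GTAA spot on both.

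GTAA was 10.9 times the array median with CPD and 7.56 times with 6-4PP. In SD units this was 15.0 and 10.5. The remaining member of the series, GTTA, was much lower, at 45.5 ± 6.56 with CPD (SD, 10 spots; 36 to 55) and 74 ± 3.71 with 6-4PP (68 to 79). All of its CPD spots lay below all GTGA spots.

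Probes with a single change at another position were at the level of the library. The 27 probes that differ from GTAA, GTCA or GTGA by 1 base, without GTTA, ran from 25 to 35 with CPD and from 52 to 63 with 6-4PP. The other 252 probes of the library had medians of 29 and 58 and reached at most 40.5 and 81.5. GTAT, for example, had 27 ± 2.96 with CPD and 58.5 ± 7.99 with 6-4PP (SD, 10 spots).

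The same 4 bases had lower values in other surroundings. In MITF_ebox_59, where A in place of C follows the varied bases, GTAA had 30.5 ± 4.97 with CPD (SD, 10 spots) and 65 ± 6.06 with 6-4PP (SD, 9 spots). In MITF_sebox_60, the partner without an intact E-box, GTAA had 45.5 ± 5.27 and 80.5 ± 8.02 (SD, 10 spots) and ranked first of the 256 probes of that library with both antibodies. In NP_MITF_ebox_60, which shares the first 25 bases and has another 3′ stretch, GTAA had 42.5 ± 3.44 and 65 ± 8.28 (SD, 10 spots). There GTCA was the brightest CPD probe of its library, at 52 ± 7.81, with 69.5 ± 7.89 on the 6-4PP array. On the p53 backbone, without an E-box, p53_60_GTCA and p53_60_GTAA ranked 1 and 2 of 256 in their library with 6-4PP. Their values were 45 and 42, and with CPD they ranked 3 and 14. In p53_E_mut_60, GTCA and GTAA ranked 98 and 252 of 256 with 6-4PP.

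The string CACGTGGTNAC, where N is any base, was searched on both strands outside the shared 3′ end. It occurs in 8 sequences (0.146% of all), which are the 4 GTNA probes of MITF_ebox_60 and of NP_MITF_ebox_60. Their CPD values ran from 30.5 to 328 and their 6-4PP values from 48.5 to 427. This string was chosen after the values had been seen. The E-box alone occurs in 1202 sequences (21.9%), whose medians were 29.5 with CPD and 59 with 6-4PP, close to the array medians.

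The same 3 probes did not stand out on irradiated DNA. On the CPD irradiated array GTAA, GTCA and GTGA were 0.966, 0.714 and 0.539 times the array median. On the 6-4PP irradiated array they were 0.670, 0.927 and 0.718 times. Their ranks there lay between 2841 and 4698 of 5480.

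Apart from these probes the order of sequences on the non-irradiated arrays was only in part alike. The Spearman rho between the non-irradiated arrays was 0.27 over 5480 sequences (Pearson r of log2 intensity 0.32, and 0.28 without the 3 brightest). Odd and even spots of the same array had a rho of only 0.54 with CPD and 0.84 with 6-4PP, which limits the rho between arrays. Both arrays have the same layout. Spots at the same position deviated from their sequence medians with a rho of -0.074 between the arrays. With odd spots on 1 array and even spots on the other, so that no position is shared, rho was 0.25 in either assignment. The rho was 0.33 over the 2248 sequences of 59 bases and 0.18 over the 3232 of 60 bases. Length cannot be told apart from backbone in this split, since the p53 libraries with every base combination hold only 60-base probes. The rho was 0.50 over the 1144 sequences of the p53 backbone and 0.27 over the 4336 of the other backbones. After each library was set to its own median, the rho between the arrays was 0.37. Within single libraries it was above 0 in 27 of 27, from 0.078 in p53_E60 to 0.72 in the p53 three-position library of the listed strand. The points of each such correlation share their backbone and are not independent replicates.

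Libraries accounted for 80.4% of the variance of the 6-4PP background and for 14.3% of that with CPD. With the 6-4PP array taken by its title, the former share was 3.42%. The p53 backbone was set apart with 6-4PP. There its 1144 sequences had a median of 39.5 (31.5 to 59.5), against 58 (41 to 427) for the 4336 on the other backbones. With CPD the medians were 29 and 30. Among sequences, 467 lay more than 2 SD below the array median with 6-4PP (8.52% of all), and all 467 were p53 probes, which is 40.8% of the p53 probes. With CPD 0 sequences lay that low, where the scale ends close to the level of the unnamed spots. The backbones overlapped: 411 p53 sequences were brighter than the dimmest other sequence.

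Each of the 6 p53 libraries was below each of the 21 others with 6-4PP. Their medians ran from -2.27 SD units in the opposite-strand three-position library, at an intensity of 36.5, to -1.42 in p53_mut_60 and p53_E_mut_60, at 43. With CPD the same libraries ranked from the fifth, p53_E_mut_60 at 0.31 SD units, to the 27th, the opposite-strand library at -0.55. The 5 dimmest sequences with 6-4PP were all p53 probes. One was p53_60_CGAC with 32 ± 5.13 (SD, 10 spots), which had 27.5 ± 4.69 with CPD, and another p53_60_GGCC with 32 ± 3.87 and 28.5 ± 3.05.

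Most p53 probes hold a stretch of 14 bases that equals its own reverse complement. The 883 p53 sequences whose longest such stretch had 14 bases had a 6-4PP median of 40. Those with 6, 8, 10 or 12 bases had medians between 37.25 and 38.5, the 16 with 24 bases a median of 38, and the single one with 18 bases a value of 36. The part of such stretches in the p53 level was not tested. On irradiated DNA the p53 probes were not set apart in this way, with 6-4PP medians of 14829 against 16003 for the other backbones.

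The highest 6-4PP libraries were MITF libraries. MITF_Ex_ebox_59 led at 0.69 SD units, with an intensity of 64.5, followed by MITF_Ex_ebox_60 at 0.59 and MITF_sebox_59 at 0.57. With CPD these stood at 0.10, -0.21 and -0.11. The highest CPD libraries were on the TBP backbone. The listed-strand three-position library stood at 0.79 SD units, TBP_E59 at 0.69 and TBP_MUT_E59 at 0.41, and with 6-4PP they stood at 0.31, 0.40 and 0.20. Over the 27 libraries the medians of the antibodies had a Spearman rho of 0.24. Library medians rose with the AT share outside the common end for CPD (rho 0.55) and not for 6-4PP (rho -0.25), again over 27 libraries that share backbones.

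More than 2 SD above the array median lay 324 sequences with CPD (5.91%) and 34 with 6-4PP (0.62%). Of these, 20 were shared, which is 6.17% of the CPD sequences and 58.8% of the 6-4PP sequences. The shared ones were the 3 MITF_ebox_60 probes, 12 MITF_Ex_ebox probes and 5 probes of TBP_E59 and TBP_MUT_E59. TBP_MUT_E59_TTCT, for instance, had 62 ± 15.4 with CPD and 93.5 ± 12.2 with 6-4PP (SD, 10 spots). By library, the CPD sequences came most often from TBP_E59 (61 of 256 names), TBP_MUT_E59 (46), p53_E_mut_60 (32) and the TBP three-position library of the listed strand (25 of 125). Those of 6-4PP came from MITF_Ex_ebox_59 (14 of 256) and MITF_Ex_ebox_60 (10), then TBP_E59 (5).

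After the MITF_ebox_60 probes, the next brightest sequences differed between the antibodies. With CPD they were p53_E_mut_60_TTTA at 88.5 ± 8.51 (SD, 10 spots; 72 to 100) and p53_E_mut_60_TTAA at 77.5 ± 12.1 (62 to 96). With 6-4PP these had 47.5 ± 5.15 and 45 ± 6.08, below the array median but above the median of their own library, 43. The unchanged counterpart p53_E60_TTTA was lower on both arrays, at 43.5 ± 6.92 with CPD (SD, 10 spots) and 35 ± 3.82 with 6-4PP (SD, 9 spots). It had the largest fall in rank from CPD (rank 230) to 6-4PP (rank 5378), followed by p53_E60_TTTG and p53_E60_GTTT. The whole p53_E60 library lay low with 6-4PP, at a median of 37.5.

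With 6-4PP the next brightest were MITF_Ex_ebox_60_CCTT at 105.5 ± 8.89 and MITF_Ex_ebox_60_CTTA at 105.5 ± 10.8 (SD, 10 spots). With CPD they had 37 ± 3.34 and 45.5 ± 8.16. The largest rank differences in favour of 6-4PP were MITF_Ex_sebox_59_ACCC, MITF_Ex_ebox_60_CCAG and MITF_Ex_ebox_60_TCAG. CCAG had 26 ± 5.46 with CPD, at rank 5313, and 70 ± 5.79 with 6-4PP, at rank 218. ACCC and TCAG shared its CPD value and rank. The CPD array had a lowest value of 24.5 and a median of 30, so small intensity differences span many ranks there. The spot SD of CCAG exceeds its distance from that median.

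The 5 dimmest CPD sequences were p53_P6_CC&P12_CC&P18_N and TBP_MUT_60_GCAC at 24.5, and P53_P7_AG&P13_GA&P_19_GG, p53_60_AGCG and p53_P6_N&P12_CC&P18_CC at 25. The last 3 share that value with other sequences, and the order among ties has no meaning.

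Because each library of 256 holds every combination of 4 bases, the effect of a base can be read within a backbone. The effect is the mean with that base at a position minus the mean with the other bases there, averaged over the 4 positions. By this definition the effects of the 4 bases sum to 0 in each library. A high effect of T thus lowers the others, and the signs of the bases are not separate results. Libraries share backbones and some share sequences, so counts over the 21 libraries are not counts of independent sets. With CPD the effect of T was 0.61 SD units per base (0.31 to 1.13 over the 21 libraries) and was positive in 21 of 21. G had -0.38 (-0.83 to -0.17) and C -0.20 (-0.38 to -0.097), each below 0 in all 21 libraries. A had -0.026 (-0.15 to 0.055) and was positive in 8 libraries.

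With 6-4PP T had 0.16 SD units (0.079 to 0.39) and was positive in all 21 libraries, and G had -0.20 (-0.53 to -0.0083), below 0 in all. C had 0.079 (-0.064 to 0.40) and was positive in 18 of 21. A had -0.041 (-0.19 to 0.085) and was positive in 4. T was thus the base with the highest mean effect for both antibodies and G that with the lowest, whereas the C effect was below 0 with CPD and above 0 with 6-4PP in most libraries. With the 6-4PP array taken by its title instead, the C effect was -0.112 and the A effect 0.0540.

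The C effect of 6-4PP exceeded that of CPD in 21 of 21 libraries, by 0.28 SD units (0.033 to 0.54). The T effect was smaller by 0.45 (-0.88 to -0.18), also in 21 of 21. For G the difference was 0.18 and positive in 18 of 21, but its sign depends on the unit. The SD of the 6-4PP array includes the distance between backbones. In units of the pooled SD within libraries the differences were 0.41 for C, -0.31 for T and -0.0331 for G. Like the effects, these differences cancel out over the bases, so a lower T effect goes with higher values for the others. No difference between the antibodies was tested.

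The CPD background climbed with each further T among the varied bases. Relative to the library mean it was -0.48 SD units without T (81 combinations), -0.14 with 1 T, 0.59 with 2, 1.64 with 3 and 2.63 with 4. The same classes with 6-4PP were -0.16, -0.0018, 0.17, 0.32 and 0.36. TTTT was the combination with the highest CPD mean over libraries, 2.85 SD units above the library median (1.58 to 4.54), followed by TTAA at 2.64 and TTTA at 2.50. TBP_E59_TTTT had 69 ± 8.62 with CPD (SD, 10 spots) and 71 ± 7.54 with 6-4PP (SD, 9 spots). The lowest CPD combinations were GGGG at -0.56, GGGC at -0.56 and GGCA at -0.55.

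With 6-4PP mixed pyrimidines came first. CCTT had the highest mean, 0.99 SD units (0.14 to 2.66), and was above the library median in 21 of 21 libraries, followed by TCTT at 0.82 and CTCT at 0.81. TTTT, at 0.41, had rank 24 of 256. With CPD CCTT had 1.56 and rank 18. The lowest 6-4PP combinations were GCGG at -0.35, GTGT at -0.34 and GCGA at -0.34. Averaged over libraries in this way, the 256 combinations had a Spearman rho of 0.72 between the antibodies, higher than that of single sequences. These averages share the same arrays and backbones.

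Pyrimidine-rich varied bases on the listed strand went with higher background than their reverse complements. Each of 80 combinations with 3 or 4 pyrimidines was set against its reverse complement in the same library. In double-stranded DNA this would hold the same base pairs turned around, but the sources used here do not state the array preparation. The contrast uses the same values as the base effects and is not a separate result. An effect of T above that of A, and of C above that of G, gives such a difference. With CPD the gap was wider between T and A (0.61 and -0.026) than between C and G (-0.20 and -0.38). The more pyrimidine-rich orientation was higher by a mean of 0.74 SD units with CPD (0.15 in MITF_ebox_60 to 1.66 in TBP_E59) and by 0.42 with 6-4PP (0.059 in p53_E60 to 0.92 in MITF_Ex_ebox_59). In units of the pooled SD within libraries the order of the antibodies turned, with 0.821 for CPD and 0.963 for 6-4PP. The mean was positive in 21 of 21 libraries for both, though some libraries share sequences. The CPD value of MITF_ebox_60 rested on its brightest probes: without GTAA, GTCA and GTGA it was 0.442 over 78 pairs, and the lowest library was then MITF_sebox_60 at 0.339. Over all 1680 pairs the pyrimidine-rich orientation was higher in 1264 with CPD (75.2%) and in 1333 with 6-4PP (79.3%).

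The three-position libraries gave the same picture with isolated steps. Probes with a step at a position were set against probes without one there. On the listed strand TT went with a CPD background higher by 1.76 SD units on the TBP backbone, 0.99 on p53 and 0.72 on MITF, averaged over positions. With 6-4PP the values were 0.32, 0.53 and 0.22. The p53 value with 6-4PP came from the first position, at 1.46, against -0.058 and 0.19 at the others. CC gave 0.16, 0.066 and -0.063 with CPD and 0.18, 0.062 and 0.21 with 6-4PP, in the same order of backbones. AA, the reverse complement of TT, gave 0.31, 0.24 and 0.13 with CPD and 0.075, 0.085 and 0.16 with 6-4PP. GG gave 0.056, -0.016 and -0.12 with CPD and -0.22, -0.031 and -0.093 with 6-4PP. The steps are not simple insertions. The TBP probe with TT at all 3 positions has 59 bases, and the one without any step has 60. Bases around the steps differ as well, so a step cannot be told apart from length and neighbouring bases.

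The TBP probe with TT at all 3 positions, printed above, had 76 ± 7.72 with CPD and 69.5 ± 8.86 with 6-4PP (SD, 10 spots). The TBP probe without any step had 29 ± 5.35 (SD, 40 spots) and 54 ± 8.02 (SD, 39 spots). On the CPD irradiated array the first of these ranked 1 of 5480.

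Probes of 59 bases were brighter than their partners of 60 bases with the same varied bases. The median difference over 2048 pairs was 0.23 SD units with CPD (quartiles -0.12 and 0.69) and 0.18 with 6-4PP (-0.047 and 0.45). In units of the pooled SD within libraries the order turned, with 0.255 for CPD and 0.410 for 6-4PP, and with the 6-4PP array taken by its title its value was 0.0275 array SDs. The 59-base probe was higher in 1264 pairs with CPD (61.7%) and in 1365 with 6-4PP (66.7%). It was lower in 637 and 593, and the remaining pairs were ties. The median was above 0 in 8 of 8 pairs of libraries for both. It was largest for TBP_E59 over TBP_E60, at 0.66 with CPD (207 of 256 pairs) and 0.43 with 6-4PP (209 of 256), and for TBP_MUT_E59 over TBP_MUT_E60, at 0.52 (185 of 256) and 0.39 (220 of 256). In these libraries the base after the varied ones is T with 59 bases and G with 60, so that length and this base cannot be told apart. The next base also differs in each of the other library pairs.

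Site and changed-site libraries were compared at equal varied bases. Over 2560 pairs the site was higher in 1137 with CPD (44.4%) and in 1204 with 6-4PP (47%). It was lower in 1245 and 1252, and the remaining pairs were ties. The backbones went different ways. For p53 the site was lower than the changed version with both antibodies. p53_60 minus p53_mut_60 was -0.44 SD units with CPD (site higher in 45 of 256) and -0.77 with 6-4PP (2 of 256). p53_E60 minus p53_E_mut_60 was -0.65 (39 of 256) and -0.72 (8 of 256). The changed p53 versions are richer in A and T, with 58% and 60% outside the shared end against 52% and 54%.

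For TBP the site was the higher one with 6-4PP in each of the 4 pairs of libraries, by 0.14 to 0.22 SD units. With CPD it was higher by 0.20 for TBP_59, 0.18 for TBP_60 and 0.21 for TBP_E59, and the median difference was 0 for TBP_E60. For MITF the CPD medians differed by at most 0.10. With 6-4PP the E-box probes were lower where the varied bases follow the E-box directly, with -0.22 in MITF_ebox_59 and -0.21 in MITF_ebox_60, each with the site higher in 72 of 256 pairs. They were higher where a C lies between, with 0.20 in MITF_Ex_ebox_59 (170 of 256) and 0.25 in MITF_Ex_ebox_60 (176 of 256).

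The 3′ stretch also went with a difference. With 6-4PP the median of NP_MITF_ebox_60 minus MITF_ebox_60 was -0.67 SD units, with the former lower in 243 of 256 pairs and higher in 11. With CPD the median was 0.23, with the former higher in 156 of 256 and lower in 85.

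The background order was found again on irradiated DNA to different degrees. With each library at its own median, sequences on the non-irradiated and the irradiated array of an antibody had a Spearman rho of 0.62 with CPD (0.21 to 0.86 over libraries) and of 0.33 with 6-4PP (0.066 to 0.56), over 6126 probe names. Without that centring the values were 0.58 and 0.21 over 5480 sequences. On the 6-4PP irradiated array the brightest values end at the ceiling of the intensity scale, where ranks are tied.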

How the data were processed

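The authors deposited, per the file headers, fluorescence intensity of each spot on a linear scale, with columns for unflagged spots, the local median and a spatially adjusted intensity. The Cy3 column held 1 at every spot, so the amount of DNA was not corrected for. No source used here states scanner settings, array preparation or image software. Unflagged intensity was summarised per sequence as the median of spots. Of 61260 library spots per array, 1305 were flagged with 6-4PP and 0 with CPD. All 5480 sequences had at least 3 unflagged spots on both arrays. Local medians ran from 25 to 74 with CPD and from 46 to 65 with 6-4PP. Log2 values were centred on the array median and divided by the array SD. No p-value was computed.

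Named sequences were the 5 brightest and 5 dimmest per antibody and the 3 with the largest rank difference in each direction; 4-base combinations were the 3 highest and 3 lowest. Probes around GTAA, GTCA and GTGA, and the TTTT and TTCT probes, were added after their values were seen. Members, lists and rules were chosen with earlier results of these data known. Alternatives covered the intensity column, the summary of spots, the unit, left-out spots or sequences and the title of the 6-4PP array; those on the 3 brightest probes and on the SD within libraries were chosen after seeing the data. With 1 array per group, the number of arrays limits the precision. Python 3.11.15, numpy 2.4.6 and pandas 2.3.3 were used.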

Additional observations from a re-analysis of the deposited data

Results flagged for a closer look

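An additional C among the varied bases went with opposite signs on the antibody arrays, -0.204 SD units with CPD and 0.0793 with 6-4PP. The effects of the bases cancel out within a library, so the C effect is not independent of the T effect. The exchange of the 3′ stretch in NP_MITF_ebox_60 also went opposite ways, 0.229 with CPD and -0.674 with 6-4PP. Neither difference was tested, since each antibody had 1 array. Control spots outside the library were bright without irradiation. The ERCC-00053 control spots had a median of 599 over 35 spots with CPD and of 154 with 6-4PP, above the library medians of 30 and 56.5. Of 28 control classes with at least 10 spots, 28 exceeded the library median with CPD and 14 with 6-4PP. The files print no sequence for these spots.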

How the results depend on the processing

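No paired analysis was possible because each group held 1 array. A value counted as moved when it shifted by more than its SD over single replicate spots. It counted as turned when its sign changed and the main value exceeded that SD. Bright counts were judged by their ratio to the main count instead. With flagged spots kept, 22 of 22 main values did not move. With only the sequences that occur in 1 library, 18 of 54 library medians moved and 0 turned.

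With spatially adjusted intensity the rank correlation was 0.299 (within libraries 0.433), the CPD library share 14.7% and the CPD effect of T 0.631. The CPD difference of MITF_Ex_ebox_59 and MITF_Ex_sebox_59 turned from -0.104 to 0.0037. With the mean of spots the within-library correlation was 0.390, the 6-4PP library share 81.2%, the CPD effect of G -0.366 and the G difference between antibodies 0.159. Per probe name the correlations were 0.253 and 0.357, and the CPD effect of T was 0.630. Spots at separate positions gave 0.253 and 0.245. Leaving out 1 replicate spot number gave 0.261 to 0.271, within libraries 0.346 to 0.355, and a CPD library share of 13.6% to 14.2%; the TBP_59 median with 6-4PP turned from 0.046 to -0.0229.

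Without the 338 bright sequences the correlations were 0.225 and 0.309 and the library shares 11.02% and 85.6%. CPD effects were then -0.0122 for A, -0.0868 for C, -0.253 for G and 0.394 for T, and those of 6-4PP 0.0943 for C, -0.170 for G and 0.120 for T. The differences were 0.181 for C, 0.0833 for G and -0.274 for T, and the strand differences 0.535 and 0.379. Without the 3 brightest probes, added after seeing the data, the library shares were 15.8% and 83.0%.

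On linear intensity the library shares were 8.32% and 58.5%, the CPD length difference 0.133 and CPD effects -0.169 for C, -0.279 for G and 0.461 for T. The CPD strand difference was 0.519, the differences 0.243 for C, 0.0774 for G and -0.298 for T, and the bright counts 189 and 64. At 3 SD the counts were 122 and 5.

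With the scaled median absolute deviation the length differences were 0.356 and 0.276. CPD effects were -0.0410 for A, -0.317 for C, -0.595 for G and 0.954 for T, and those of 6-4PP -0.0621, 0.121, -0.309 and 0.250. Differences were 0.439 for C, 0.287 for G and -0.704 for T, strand differences 1.15 and 0.647, and bright counts 669 and 146.

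In units of the pooled SD within libraries, added after seeing the data, CPD effects were -0.227 for C, -0.426 for G and 0.683 for T, with a strand difference of 0.821. Those of 6-4PP were -0.0924 for A, 0.180 for C, -0.460 for G and 0.371 for T, with a strand difference of 0.963 and a length difference of 0.410. Differences were -0.0631 for A, 0.408 for C, -0.312 for T and, turned in sign, -0.0331 for G. The 6-4PP strand and length differences then exceed those of CPD.

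Taken by title, the 6-4PP array would be the irradiated one. The correlations were then 0.382 and 0.408, the library share 3.42%, the length difference 0.0275 and the bright count 324. Effects were 0.0540 for A and -0.112 for C, both turned, -0.287 for G and 0.345 for T, with a strand difference of 0.447. Differences were 0.0804 for A, 0.0921 for C, 0.0962 for G and -0.269 for T. Library medians that turned were -0.317 for the MITF three-position listed-strand library, -0.138 for MITF_Ex_ebox_59, -0.142 for MITF_Ex_sebox_59, -0.0935 for MITF_ebox_60, -0.171 for MITF_sebox_60, 0.0515 for TBP_60, 0.176 for the p53 listed-strand library and 0.262 for p53_E_mut_60. The MITF_Ex_sebox length difference turned to -0.0937. Site differences turned to 0.0277 for MITF_ebox_60, -0.0022 for MITF_Ex_ebox_59 and -0.0045 for MITF_Ex_ebox_60.

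The cause of these shifts was not tested. On the CPD array the library median lies close to that of the unnamed spots, 30 against 28.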
